A study of Rattus norvegicus with 24 samples.

Results

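The genes described here are 44 genes of cell proliferation and mitosis, measured by RNA sequencing in the left kidneys of 24 male PKD/Mhm (Cy/+) rats. They were chosen by name, from the cyclins and their kinases through the replication helicase to the mitotic spindle. Their values in these kidneys were not a criterion, but earlier results of these data were known when they were chosen. All 44 were found among the 17334 genes of the deposited tables, and all 44 were among the 12778 genes that passed the filter on low counts. The PKD/Mhm (Cy/+) rat is a model of polycystic kidney disease that arose in a Sprague Dawley colony and carries 1 copy of the Cy allele, a missense change in the gene for SamCystin. The labels give this genotype and an age of 8 months for every rat. Carriers had been told from non-cystic rats by palpation of the abdomen, the genotype of the libraries was not tested, and no group labelled as non-cystic was analysed here.

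Each of the 4 groups held 6 rats. Ctrl rats received no treatment. Human skin-derived ABCB5+ stromal cells were given once a month for 6 months, into the peritoneum of the i.p. ABCB5+ rats and into a vein of the i.v. ABCB5+ rats. The CoCM group received conditioned medium in place of cells, taken from ABCB5+ cells grown together with macrophages of the THP-1 line under stimulation with IFN-γ and LPS. The sources differ on how CoCM was given: the series text and 1 passage of the study name the peritoneum, and the study's methods name a vein. Ctrl rats carried animal numbers from 1 to 24 and treated rats from 26 to 43, so that anything that followed the order of the animals cannot be told apart from treatment.

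A cell enters division when cyclin D with Cdk4 or Cdk6, and then cyclin E with Cdk2, phosphorylate the retinoblastoma protein and release E2F, which switches on the genes of DNA replication. A later wave of transcription, driven by B-Myb and FoxM1, supplies the cyclins, kinases and motors of mitosis. Tubule cells of an adult kidney divide rarely, while the epithelium lining a cyst divides more often, and cyst growth depends on that division. Proliferating macrophages, lymphocytes and fibroblasts use the same genes, and in whole kidney RNA fewer cycling cells and less RNA in each cannot be told apart.

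Libraries held between 9304601 and 14125442 estimated counts. Levels are given as CPM, counts scaled to a common library size by the TMM method, and as TPM where genes are compared with each other. At this depth 3 counts in the smallest library correspond to 0.322 CPM. In a principal component analysis of all tested genes, 4 kidneys stood apart on the first component, which held 56.3% of the variance: CoCM animal 39, i.p. animal 38, and i.v. animals 36 and 37. No Ctrl kidney was among them, and whether these 4 rats carried the Cy allele was not tested. Summed CPM of 12 injured tubule markers was between 1087 and 1635 in these 4 and between 9305 and 17691 in the other 20, and that of 10 proximal tubule markers was between 12246 and 23675 in the 4 and between 2691 and 10249 in the 20. Summed CPM of 10 macrophage markers was between 168 and 552 in the 4 against 1147 to 3083, and that of 9 T lymphocyte markers between 17.5 and 41.8 against 129 to 285. No marker of these lists was at 0 in every kidney, and Krt20, in the injured tubule list, had a median over the 24 kidneys under 0.322 CPM. The group comparisons below are therefore given with all 24 kidneys and with these 4 left out.

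The levels of the members fell over a wide range. In Ctrl kidneys the G1 kinase Cdk4 had the highest median, 163 TPM, followed by cyclin D1 (Ccnd1) at 93.8 TPM, the replication clamp Pcna at 85.9 TPM and cyclin D3 (Ccnd3) at 76 TPM. These genes are also transcribed in cells that do not divide. At the other end stood genes whose transcripts rise only in part of the cycle: the spindle checkpoint genes Bub1b at 0.909 TPM and Ttk at 1.09 TPM, and cyclin E1 (Ccne1), of S phase entry, at 1.65 TPM. The marker of proliferation Mki67, whose product is the Ki67 antigen that the study also stained on sections, had a median of 2.35 TPM. The median over the 44 members was 6.4 TPM, and 31 of them had Ctrl medians under 10 TPM. The gene table lists at least 1 pseudogene for 14 members, 4 for Cdk4 and 3 each for Pcna and Aurka, and reads shared with such copies make the levels of these 14 less certain.

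The first comparison asked whether conditioned medium altered these genes. Among 44 members none passed an adjusted p of 0.05 in CoCM against Ctrl by edgeR's quasi-likelihood test, beside 0.00783% of all genes tested, and 3 had an unadjusted p under 0.05. The replication licensing factor Cdc6 and cyclin B1 (Ccnb1), the cyclin that with Cdk1 drives entry into mitosis, were the 2 on the higher side, where 5.96% of all genes stood. Cyclin D2 (Ccnd2), a G1 cyclin, was the 1 on the lower side, where again 5.96% of all genes stood. These shares are near those of all genes, so that the count is no result about the members as a set.

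CPM of Cdc6 was between 5.09 and 11.4 in Ctrl (median 7.65), between 10.5 and 17.6 in CoCM (median 14.8), between 6.98 and 13.8 in i.p. ABCB5+ (median 9.21) and between 5.8 and 12.1 in i.v. ABCB5+ (median 9.66). Ctrl and CoCM overlapped only between the lowest CoCM kidney and the highest Ctrl kidney. Its level in CoCM was 1.83-fold that in Ctrl (approximate 95% interval 1.33 to 2.51), a log2 difference of 0.87 ± 0.22 (SE, n = 6 per group, edgeR adjusted p = 0.202), and 0.83 ± 0.22 without the kidneys standing apart. DESeq2 gave an adjusted p of 0.0312 and limma voom with sample quality weights 0.0155, so that the call for Cdc6 depended on the test. Cdc6 loads the Mcm2 to Mcm7 helicase onto origins, and none of the helicase genes had an unadjusted p under 0.05 in this comparison.

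CPM of Ccnb1 was between 14.3 and 22.4 in Ctrl (median 18.5), between 21.6 and 42.8 in CoCM (median 27.7), between 18 and 35.5 in i.p. ABCB5+ (median 19.7) and between 20.1 and 36.6 in i.v. ABCB5+ (median 24.6). The log2 difference between CoCM and Ctrl was 0.63 ± 0.19 (edgeR adjusted p = 0.255) and stood at 0.48 ± 0.13 without the kidneys standing apart (adjusted p = 0.207). The highest value of each treated group came from a kidney that stood apart, animals 39, 38 and 37.

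CPM of Ccnd2 was between 7.35 and 12.8 in Ctrl (median 10.8), between 3.76 and 9.33 in CoCM (median 5.65), between 4.74 and 15.5 in i.p. ABCB5+ (median 8.95) and between 3.35 and 13 in i.v. ABCB5+ (median 8.23). Only the highest CoCM kidney lay inside the Ctrl range, and the log2 difference was -0.86 ± 0.31 (edgeR adjusted p = 0.352). Without the kidneys standing apart it was -0.78 ± 0.27, and Rbl1, a pocket protein that holds E2F back, came to -0.53 ± 0.21 (edgeR adjusted p = 0.24), against -0.49 ± 0.24 with all animals. CPM of Rbl1 was between 5.95 and 11.4 in Ctrl and between 4.27 and 7.86 in CoCM, and the groups overlapped.

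**Figure D1:**
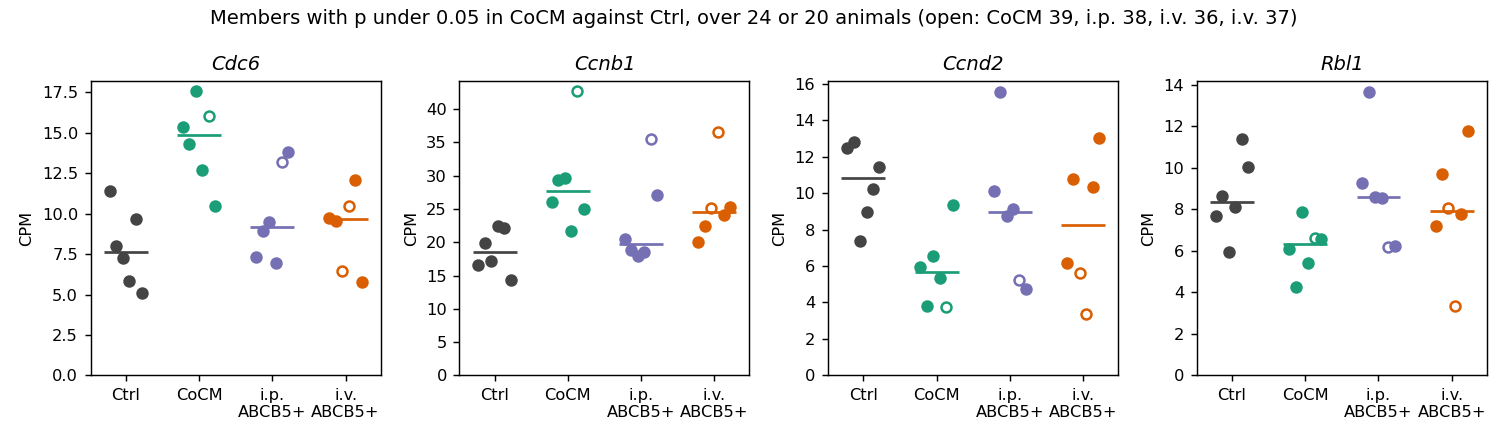
CPM (y axis, from 0) of Cdc6, Ccnb1, Ccnd2 and Rbl1 in each kidney, by group (x axis, 6 kidneys each). Points are kidneys, lines are group medians and open points are the 4 kidneys that stand apart. CoCM kidneys sit at the upper side for Cdc6 and Ccnb1 and at the lower side for Ccnd2, with ranges that meet or overlap those of Ctrl.

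The proliferation marker and its companion in condensing chromosomes did not separate the groups. CPM of Mki67 was between 15.6 and 32.4 in Ctrl (median 16.9), between 3.76 and 25.4 in CoCM (median 15), between 2.3 and 32 in i.p. ABCB5+ (median 15.2) and between 4.94 and 23.7 in i.v. ABCB5+ (median 17.3). CPM of Top2a, the topoisomerase that untangles sister chromatids, was between 10.7 and 19.9 in Ctrl (median 13.4), between 2.05 and 14.3 in CoCM (median 9.52), between 1.09 and 13.9 in i.p. ABCB5+ (median 10.9) and between 2.79 and 16.6 in i.v. ABCB5+ (median 11.3). The low ends of all treated groups belonged to the 4 kidneys that stood apart. In CoCM against Ctrl the log2 difference of Mki67 was -0.29 ± 0.46 (edgeR adjusted p = 0.766), with a fold between 0.421 and 1.58 in the approximate 95% interval, and it was -0.10 ± 0.24 without those kidneys. For Top2a it was -0.52 ± 0.46 (edgeR adjusted p = 0.604), and -0.32 ± 0.19 without them.

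In the cyclins and kinases of G1, the medians of most members lay close together across groups. CPM of Ccnd1 was between 211 and 304 in Ctrl (median 245), between 216 and 291 in CoCM (median 239), between 206 and 275 in i.p. ABCB5+ (median 232) and between 224 and 299 in i.v. ABCB5+ (median 247). CPM of Cdk4 was between 118 and 168 in Ctrl (median 139), between 92.3 and 178 in CoCM (median 144), between 120 and 159 in i.p. ABCB5+ (median 139) and between 96.7 and 157 in i.v. ABCB5+ (median 131). Both genes were among the most abundant members, and their intervals were narrow. In CoCM against Ctrl the fold of Ccnd1 lay between 0.828 and 1.12 and that of Cdk4 between 0.843 and 1.23 in the approximate 95% intervals. CPM of Cdk6, the other partner of cyclin D, was between 3.45 and 8.26 in Ctrl (median 4.57), between 2.73 and 5.35 in CoCM (median 4.4), between 4.6 and 7.51 in i.p. ABCB5+ (median 5.05) and between 5.11 and 7.48 in i.v. ABCB5+ (median 5.62), with a log2 difference of -0.26 ± 0.21 in CoCM against Ctrl. The remaining members of this group, Ccnd3, Ccne1, Ccne2 and Cdk2, had unadjusted p over 0.05 in every comparison. In all, 4 of the 8 were lower and 4 higher in CoCM than in Ctrl, with a median log2 difference of -0.03.

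Among the cyclins and kinase of S phase, G2 and mitosis, 3 of 4 were higher in CoCM, and only Ccnb1 had an unadjusted p under 0.05. CPM of Ccna2, cyclin A2 of S phase and G2, was between 5.4 and 9.31 in Ctrl (median 6.17), between 1.25 and 8.74 in CoCM (median 6.24), between 1.7 and 7.12 in i.p. ABCB5+ (median 6.18) and between 2.09 and 7.06 in i.v. ABCB5+ (median 5.85). CPM of Cdk1, the kinase that cyclins A and B bind, was between 4 and 12 in Ctrl (median 6.27), between 1.93 and 15.3 in CoCM (median 7.06), between 1.33 and 8.26 in i.p. ABCB5+ (median 6.46) and between 2.18 and 8.23 in i.v. ABCB5+ (median 5.66). The medians of the treated groups lay inside the Ctrl range for both genes. The log2 differences between CoCM and Ctrl were -0.19 ± 0.36 for Ccna2 and 0.15 ± 0.41 for Cdk1, and 0.05 for Ccnb2, another B cyclin, none with an unadjusted p under 0.05.

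The replication genes gave 1 member with a small p, Cdc6, among 10. CPM of Mcm2, of the helicase, was between 31.5 and 39.8 in Ctrl (median 33.9), between 20.1 and 38.8 in CoCM (median 33.2), between 26.6 and 38.3 in i.p. ABCB5+ (median 31.8) and between 22.8 and 35.7 in i.v. ABCB5+ (median 33.2). CPM of Pcna was between 53.8 and 76.6 in Ctrl (median 60.4), between 59.3 and 73.2 in CoCM (median 63.5), between 50 and 68.2 in i.p. ABCB5+ (median 60) and between 53.4 and 79.1 in i.v. ABCB5+ (median 62.6). The approximate 95% interval of the fold in CoCM against Ctrl was 0.766 to 1.13 for Mcm2 and 0.889 to 1.2 for Pcna. Mcm3, Mcm4, Mcm5, Mcm6 and Mcm7, the other helicase subunits, Cdc45, which activates the helicase, and Cdt1, which loads it with Cdc6, had unadjusted p over 0.05 in this comparison, as did all 3 genes of deoxynucleotide synthesis, Rrm2, Tyms and Tk1.

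Of the 8 mitotic kinases and checkpoint genes, 4 were lower and 4 higher in CoCM, and none had an unadjusted p under 0.05. CPM of Plk1, the polo-like kinase of mitotic entry, was between 3.08 and 10.4 in Ctrl (median 5.36), between 1.37 and 6.7 in CoCM (median 4.9), between 0.606 and 7.21 in i.p. ABCB5+ (median 5.13) and between 1.58 and 6.12 in i.v. ABCB5+ (median 4.79). CPM of Birc5, survivin, which holds Aurora B at the centromere, was between 2.22 and 5.22 in Ctrl (median 3.61), between 1.14 and 6.78 in CoCM (median 4.14), between 1.57 and 4.44 in i.p. ABCB5+ (median 4.14) and between 2.88 and 3.8 in i.v. ABCB5+ (median 3.23). Their intervals were wider than those of Ccnd1 and Cdk4. The fold of Plk1 in CoCM against Ctrl lay between 0.426 and 1.5 and that of Birc5 between 0.724 and 1.7. The other 6 were Bub1, Bub1b and Ttk of the spindle checkpoint, the Aurora kinases Aurka and Aurkb, and Cdc20, which ends the checkpoint by activating the anaphase-promoting complex. The 5 genes of spindle motors and cytokinesis, Kif11, Kif23, Nusap1, Prc1 and Ect2, likewise had unadjusted p over 0.05 in this comparison.

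Transcription factors of the cycle and the retinoblastoma protein were close to level. CPM of E2f1 was between 3.46 and 7.14 in Ctrl (median 5.07), between 1.93 and 6.34 in CoCM (median 5.28), between 2.91 and 6.13 in i.p. ABCB5+ (median 4.66) and between 2.94 and 6.03 in i.v. ABCB5+ (median 4.19). CPM of Foxm1 was between 6.91 and 11.2 in Ctrl (median 9.29), between 6.71 and 9.91 in CoCM (median 9.13), between 5.62 and 10.9 in i.p. ABCB5+ (median 7.95) and between 6.69 and 10.8 in i.v. ABCB5+ (median 8.68). CPM of Rb1, which holds E2F until the G1 kinases release it, was between 86.3 and 108 in Ctrl (median 96.4), between 81.3 and 100 in CoCM (median 93.5), between 87.7 and 102 in i.p. ABCB5+ (median 90) and between 85.8 and 106 in i.v. ABCB5+ (median 93.1). Of the 3, Rb1 had the narrowest interval, a fold in CoCM against Ctrl between 0.871 and 1.07.

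Over all 44 members, 27 were lower and 17 higher in CoCM than in Ctrl, with a median log2 difference of -0.06 beside 0.01 over all genes tested. Without the kidneys that stood apart, 20 were lower and 24 higher, and the median was 0.03. The side of the median thus turned when these kidneys, CoCM 39 among them, were left out, and it was 0.05 when Ctrl animal 1 alone was left out.

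Cells given into the peritoneum were compared with no treatment next. None of the 44 members passed an adjusted p of 0.05 by edgeR, beside 0.0% of all genes, and none had an unadjusted p under 0.05, where 1.26% of all genes were higher and 0.509% lower. The smallest p-values were those of Ccnb1, with a log2 difference of 0.30 ± 0.19 (edgeR adjusted p = 0.978), of Cdc6, with 0.33 ± 0.22 (edgeR adjusted p = 0.978), and of Ccnd3, with 0.13 ± 0.09 (edgeR adjusted p = 0.978). DESeq2 and limma voom with sample quality weights called 0 members as well. CPM of Ccnd3 was between 82.5 and 112 in Ctrl (median 92.3), between 78.3 and 105 in CoCM (median 98.1), between 86.7 and 128 in i.p. ABCB5+ (median 98.6) and between 88.2 and 111 in i.v. ABCB5+ (median 96.7). The highest of its 24 values, 128 CPM, came from i.p. animal 38, a kidney that stood apart. The log2 differences were -0.26 ± 0.46 for Mki67, -0.48 ± 0.46 for Top2a, -0.19 ± 0.41 for Cdk1 and -0.36 ± 0.43 for Plk1, all smaller than or close to their standard errors. In this comparison 37 members were lower and 7 higher, with a median of -0.15 beside 0.004 over all genes tested. Without the kidneys standing apart 33 were lower and 11 higher, with a median of -0.06 beside 0.0002 over all genes tested.

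Cells given into a vein showed 3 members with an unadjusted p under 0.05 against Ctrl and none that passed after adjustment, beside 0.0% of all genes. Ccnb1 was on the higher side, with 0.45 ± 0.19 on the log2 scale (edgeR adjusted p = 0.673), where 4.44% of all genes stood. Cdt1, with -0.64 ± 0.29 (edgeR adjusted p = 0.673), and Ttk, with -0.82 ± 0.38 (edgeR adjusted p = 0.673), were on the lower side, where 1.34% of all genes stood. CPM of Cdt1 was between 3.85 and 5.95 in Ctrl (median 4.82), between 1.02 and 6.18 in CoCM (median 3.77), between 2.86 and 4.77 in i.p. ABCB5+ (median 3.84) and between 1.52 and 4.5 in i.v. ABCB5+ (median 3.24). CPM of Ttk was between 1.6 and 3.16 in Ctrl (median 2.15), between 1.14 and 3.24 in CoCM (median 2.06), between 0.242 and 2.66 in i.p. ABCB5+ (median 2.07) and between 0.465 and 1.91 in i.v. ABCB5+ (median 1.55). The lowest i.v. values of both genes were those of animals 36 and 37. Without the kidneys standing apart the differences were 0.29 ± 0.14 for Ccnb1, -0.37 ± 0.22 for Cdt1 and -0.46 ± 0.25 for Ttk, and no member had an unadjusted p under 0.05.

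Mki67 differed by -0.46 ± 0.46 between i.v. ABCB5+ and Ctrl, a fold between 0.375 and 1.41 in the approximate 95% interval, and by -0.06 ± 0.26 with the 20 kidneys. Of the members, 37 were lower and 7 higher with all kidneys (median -0.17, beside 0.013 over all genes tested). With 20 kidneys 25 were lower and 19 higher (median -0.02, beside -0.004 over all genes tested). All 8 mitotic kinases and checkpoint genes were lower in i.v. ABCB5+ with 24 kidneys, with a median of -0.37, and 5 of the 8 with 20 kidneys, with a median of -0.06. The 3 comparisons with Ctrl share the same 6 Ctrl kidneys, so that a high or low Ctrl value enters each of them.

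**Figure D2:**
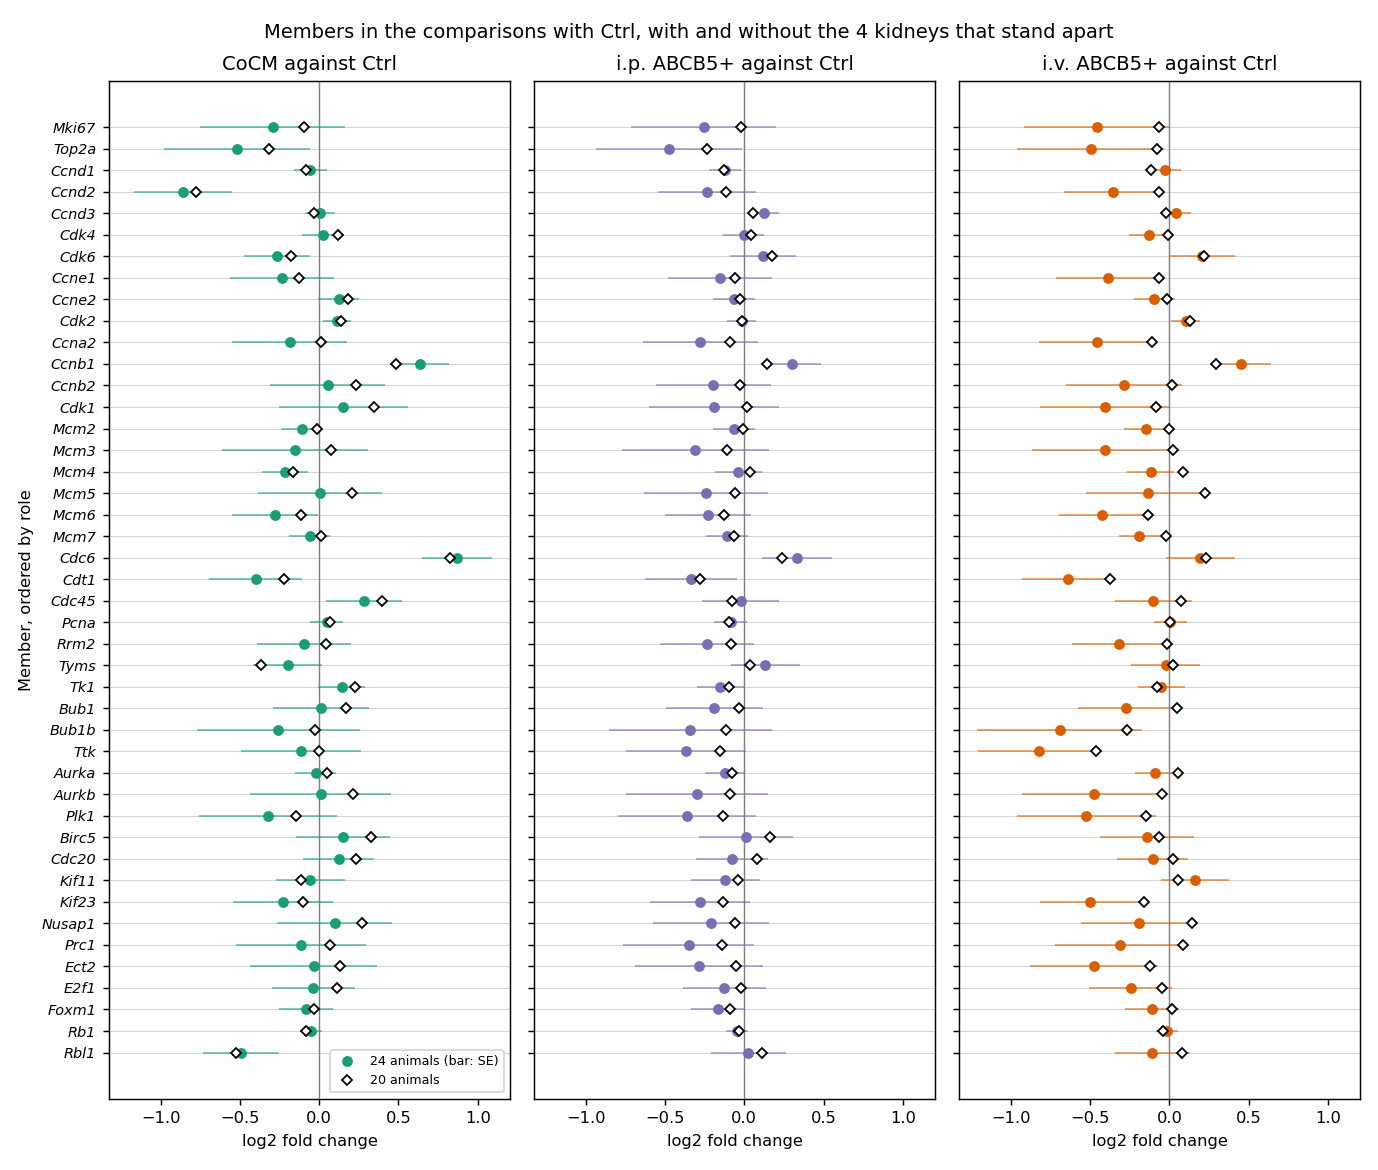
Log2 fold change (x axis) of each of the 44 members (y axis, ordered by role) in the 3 comparisons with Ctrl. Filled points with bars are the estimates ± SE from 24 kidneys, and open diamonds those from the 20 kidneys left when the 4 standing apart are taken out. Most diamonds sit closer to 0 than the filled points in the i.p. and i.v. panels, and Cdc6, Ccnb1 and Ccnd2 keep their sides in the CoCM panel.

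The routes of the cells were compared directly, i.p. against i.v. ABCB5+. No member passed by edgeR's adjusted p, beside 0.0% of all genes, and none had an unadjusted p under 0.05, where 0.689% of all genes were higher and 1.46% lower with the i.p. route. By limma voom with sample quality weights 2 members had an unadjusted p under 0.05. The share of all genes under that test is not given, so the count is no result about the members. The smallest p-values by edgeR belonged to Cdk2, with -0.12 ± 0.09, Kif11, a motor that pushes spindle poles apart, with -0.28 ± 0.22, and Ttk, with 0.46 ± 0.39 (edgeR adjusted p = 0.9999 for each). With quality weights the difference of Kif11 changed side. CPM of Cdk2 was between 20.6 and 27.8 in i.p. ABCB5+ (median 23.5), between 23.2 and 29.8 in i.v. ABCB5+ (median 24.6), between 20.1 and 27.7 in Ctrl (median 23.9) and between 22.8 and 28.7 in CoCM (median 26). CPM of Kif11 was between 24.8 and 38.9 in i.p. ABCB5+ (median 37), between 30.4 and 55.6 in i.v. ABCB5+ (median 37.7), between 20.4 and 53.7 in Ctrl (median 36.9) and between 24 and 47.8 in CoCM (median 38.5). All ranges overlapped. Over the 4 groups together 0 members passed by edgeR, beside 0.0% of all genes, and 2, Cdc6 and Ccnb1 (edgeR adjusted p = 0.817 for both), had an unadjusted p under 0.05, as 4.71% of all genes did.

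**Figure D3:**
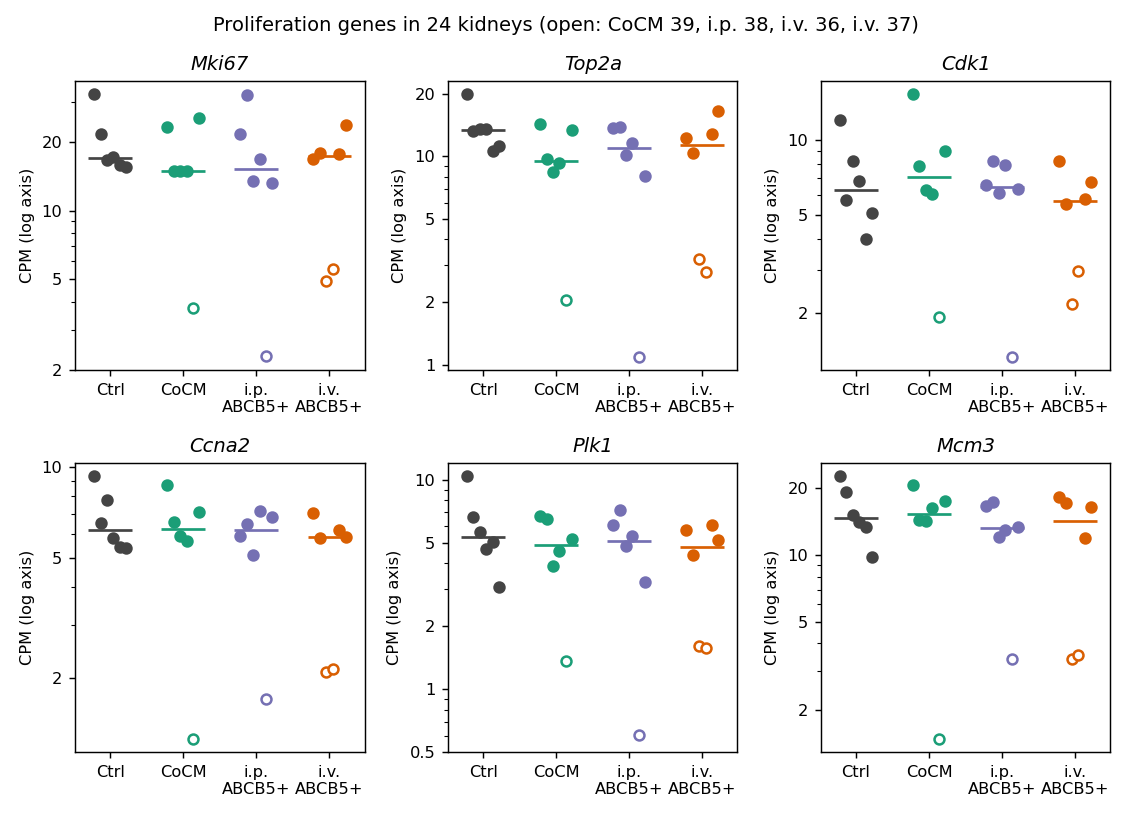
CPM (y axis, log scale) of 6 proliferation genes in each kidney, by group (x axis, 6 kidneys each). Points are kidneys, lines are group medians, and open points are CoCM 39, i.p. 38, i.v. 36 and i.v. 37, which lie below all 20 filled points in each of the 6 panels.

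Much of the spread within the treated groups came from the 4 kidneys that stood apart. These kidneys were picked out by the expression of all genes, the members included, so their values are a description and were not tested. For 23 of 44 members (52.3%) all 4 lay below every one of the other 20 kidneys, beside 14.2% of all genes tested, and for 0 members all 4 lay above, beside 10% of all genes. The remaining 21 overlapped. Mki67 stood at 3.76 CPM in CoCM 39, 2.3 in i.p. 38, 4.94 in i.v. 36 and 5.58 in i.v. 37, against 13.2 to 32.4 in the other kidneys. Top2a stood at 2.05, 1.09, 3.23 and 2.79 CPM in the same order, against 8.09 to 19.9. Both were thus low in kidneys of each treated group, and in none of Ctrl.

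Cyclins, kinases and helicase genes of S phase and mitosis were among the 23. Cdk1 stood at 1.93, 1.33, 2.18 and 2.97 CPM in CoCM 39, i.p. 38, i.v. 36 and i.v. 37, against 4 to 15.3 in the others. For 6 of 8 mitotic kinases and checkpoint genes all 4 kidneys lay below, namely Bub1, Bub1b, Ttk, Aurka, Aurkb and Plk1. Bub1b was seen with 1, 3, 6 and 6 estimated counts in these libraries, at or near the lower limit of the measurement. All 6 helicase genes, Mcm2 to Mcm7, had the 4 kidneys below, Mcm3 by the widest margin, with 1.48, 3.39, 3.42 and 3.53 CPM against 9.79 to 22.7, and Mcm2 by less, with 20.1, 26.6, 25.6 and 22.8 CPM against 30.9 to 39.8. Rrm2, the small subunit of ribonucleotide reductase, Ccna2, Ccnb2, Ccne1, E2f1, and Kif23, Prc1 and Ect2 of cytokinesis made up the rest.

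Of the 8 G1 cyclins and kinases, Ccne1 alone had all 4 kidneys below in CPM, with 1.25, 1.57, 0.665 and 1.21 against 1.59 to 4.97. In TPM 3 of the 8 and 27 of all 44 members had them below, and the share of all genes was not counted in TPM. Cdk4 had 3 of the 4 below, with 92.3, 120, 96.7 and 115 CPM against 118 to 178. For 7 of the 8 the kidneys overlapped in CPM, Ccnd1 with 261, 242, 256 and 299 CPM against 206 to 304 and Ccnd3 with 105, 128, 98.2 and 111 CPM against 78.3 to 112. Pcna, with 59.3, 62.7, 63.5 and 63.4 CPM against 50 to 79.1, and Rb1, with 99.1, 90.2, 106 and 90.4 CPM against 81.3 to 108, overlapped too. Ccnb1 lay on the other side from its partner kinase: 42.8, 35.5, 25.2 and 36.6 CPM in the 4 kidneys against 14.3 to 29.7 in the others, so that 3 of the 4 were above all of them. Cdc6 stood at 16, 13.2, 6.46 and 10.5 CPM against 5.09 to 17.6. Summed macrophage, T lymphocyte and injured tubule markers were low in the same 4 kidneys, as given above, and 9 fibroblast markers summed to between 401 and 770 CPM there against 948 to 3999 in the others. Their part in the levels of the cell cycle genes was not tested.

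**Figure D4:**
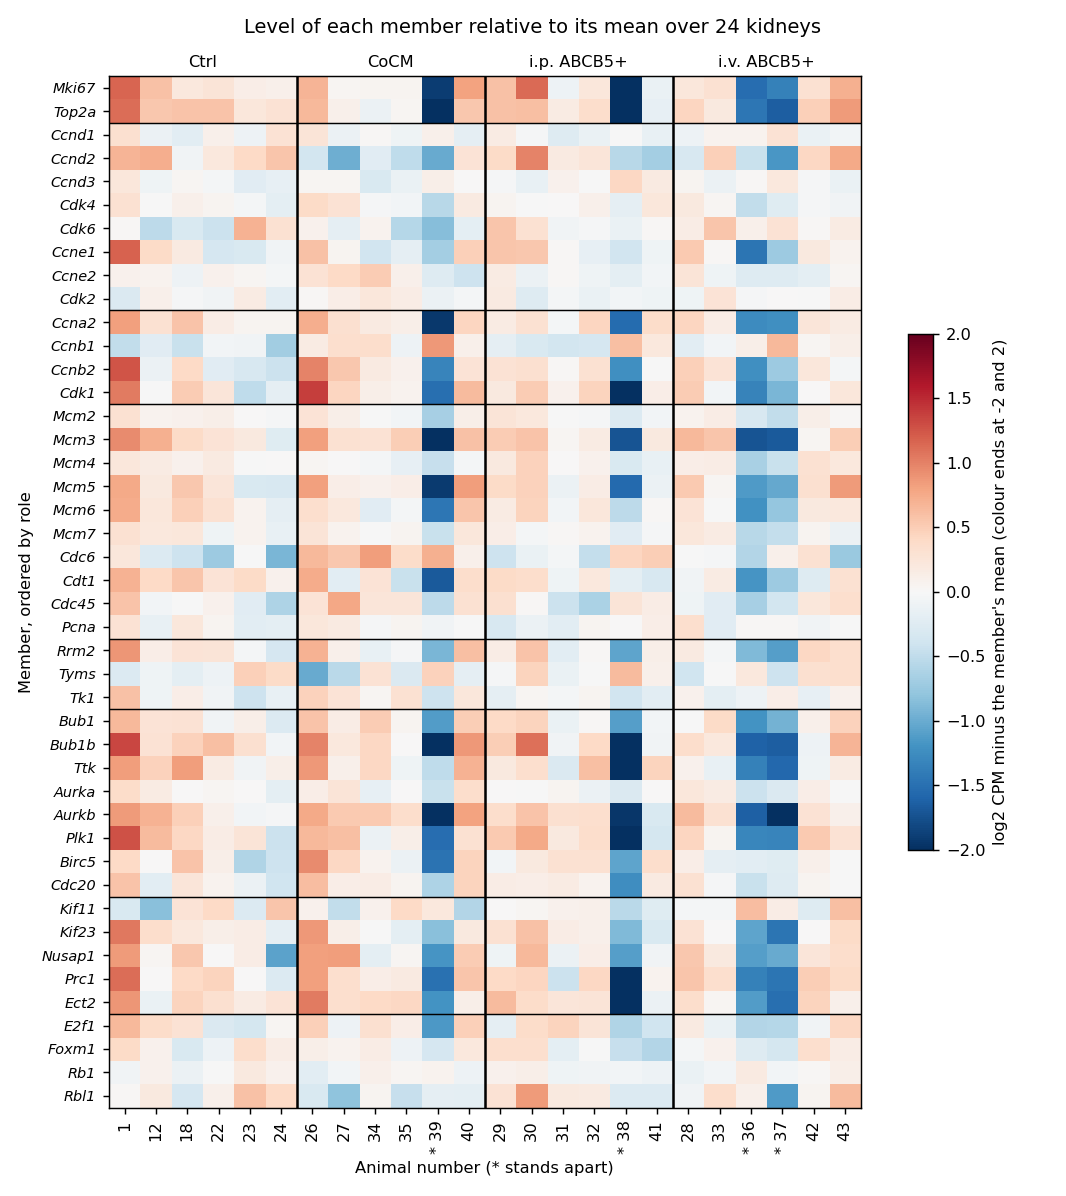
Log2 CPM of each of the 44 members (rows, ordered by role and parted by lines) minus its own mean over 24 kidneys, by kidney (columns, in 4 groups); the colour scale ends at -2 and 2. The columns of CoCM 39, i.p. 38, i.v. 36 and i.v. 37, marked with a star, are blue through most S phase and mitosis rows and pale in Ccnd1, Pcna and Rb1, while Ccnb1 is red in 3 of them.

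Mki67 alone was examined with a test that draws on no other gene. The mean log2 CPM was 4.27 ± 0.41 in Ctrl (SD, n = 6), 3.82 ± 0.97 for CoCM, 3.73 ± 1.28 after i.p. cells and 3.65 ± 0.96 after i.v. cells. The differences from Ctrl of -0.45, -0.55 and -0.63 gave two-sided exact permutation p-values of 0.366, 0.411 and 0.227 over 924 divisions each (0.548 for all after adjustment over 4 comparisons), and the routes differed by 0.08 (exact permutation p = 0.922). Without the kidneys that stood apart the differences from Ctrl were -0.08, -0.06 and -0.02, so that nearly all of the difference in means came with those kidneys. On sections of the right kidney, the study reported significantly fewer Ki67-positive cells in each of the treated groups analysed here. Stained cells on sections and RNA of the left kidney are unlike measures, and they were not compared by animal.

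In the other 20 kidneys, after removal of group means, the relation of Mki67 to 8 genes was tested by two-sided permutation, with adjustment over the 8. Mki67 went with Top2a (Pearson's r = 0.88, permutation p = 2e-05, adjusted p = 0.00016, Spearman's rho = 0.83, permutation p = 2e-05) and with Mcm2 (r = 0.76, permutation p = 0.00019, adjusted p = 0.00076, rho = 0.74, permutation p = 0.0003). Leaving out Ctrl 1 and i.p. 30, the kidneys farthest from the median of Mki67, gave r = 0.87 and r = 0.63. The macrophage gene Cd68 gave r = 0.71 (permutation p = 0.00051, adjusted p = 0.00136, rho = 0.72, permutation p = 0.0005) and r = 0.71 without those kidneys. Cdkn1a, the CDK inhibitor p21, gave r = 0.50 (permutation p = 0.0261, adjusted p = 0.0521) and rho = 0.32 (permutation p = 0.169), and r = 0.53 without those kidneys, short of the threshold after adjustment. The relations to Ccnd1 (r = 0.40, adjusted permutation p = 0.124), Havcr1, the tubule injury gene (r = 0.10, adjusted permutation p = 0.848), Pcna (r = 0.08, adjusted permutation p = 0.848) and Rb1 (r = 0.04, adjusted permutation p = 0.878) did not pass.

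**Figure D5:**
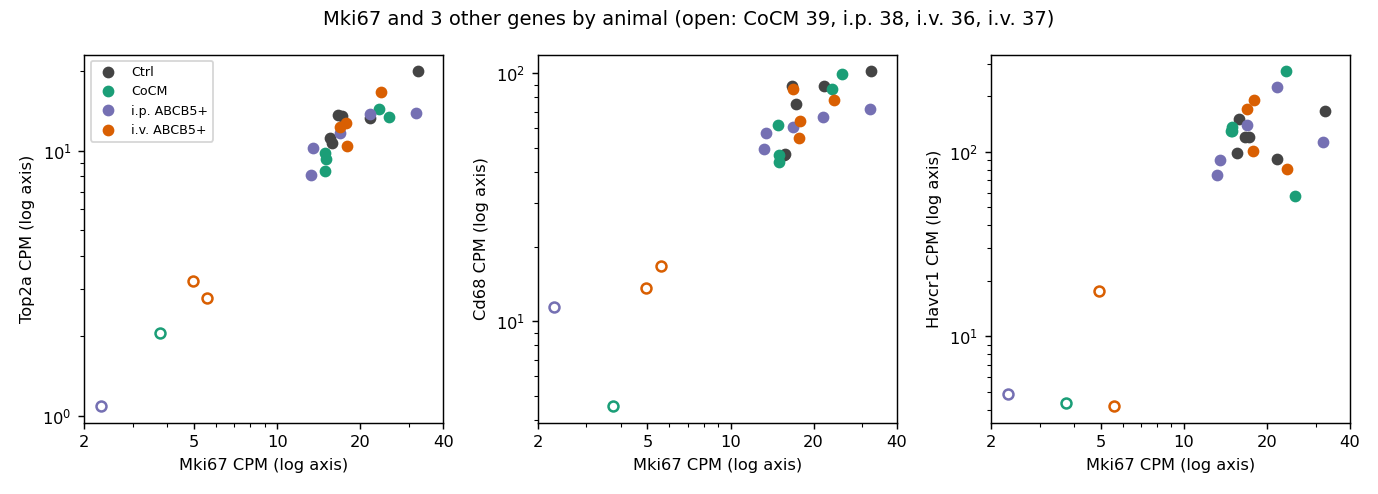
CPM of Top2a, Cd68 and Havcr1 (y axes, log scale) against CPM of Mki67 (x axis, log scale) in each of 24 kidneys, coloured by group. Open points are the 4 kidneys that stand apart, which were left out of the correlations. Top2a and Cd68 climb with Mki67 among the filled points, with r of 0.88 and 0.71, while Havcr1 is scattered, with r of 0.10.

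Other genes of the cycle, outside the 44, were read from 5 lists, of which 113 of 132 genes were tested. In CoCM against Ctrl 3 were higher and 6 lower at an unadjusted p under 0.05, where 5.96% of all genes stood on each side. In i.v. ABCB5+ 2 were higher and 6 lower, beside 4.44% and 1.34% of all genes, and in i.p. ABCB5+ there were 0, beside 1.26% and 0.509%. None passed by edgeR's adjusted p in any comparison. Without the 4 kidneys standing apart the i.v. genes at an unadjusted p under 0.05 numbered 0 higher and 1 lower. Their median log2 difference was -0.05 for CoCM, -0.10 for i.p. cells and -0.14 for i.v. cells with all kidneys, and 0.03, -0.04 and -0.02 without those 4. In CoCM the smallest p-values were those of Pold2, a subunit of DNA polymerase delta (0.25 ± 0.08, edgeR adjusted p = 0.265), and Orc3, of the origin recognition complex (-0.29 ± 0.10, edgeR adjusted p = 0.323). In i.v. ABCB5+ they were those of Gins1, of the replicative helicase complex, at -0.52 ± 0.20, and Pola1, of DNA polymerase alpha, at -0.44 ± 0.17. Nek2, a centrosome kinase, had the smallest on the higher side, at 0.63 ± 0.28 (edgeR adjusted p = 0.673 for each). Without the 4 kidneys standing apart the differences came to -0.33 ± 0.20, -0.29 ± 0.14 and 0.15 ± 0.23. Pola1 was the 1 gene that kept an unadjusted p under 0.05. All 4 kidneys standing apart lay below the others for 34 of the 113 (30.1%), beside 14.2% of all genes tested.

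The CDK inhibitors and Rbl2, which slow the cycle, gave no member that passed. Of 7 tested, 5 were lower in CoCM and all 7 in each cell group with 24 kidneys. Rbl2, a pocket protein of quiescent cells, had the smallest p in CoCM (-0.16 ± 0.07, edgeR adjusted p = 0.401), and Cdkn2a in i.v. ABCB5+ (-1.49 ± 0.74, edgeR adjusted p = 0.673). Cdkn2a was at 0 counts in i.v. 36 and 37, and without the kidneys standing apart the difference was -0.95 ± 0.58 (edgeR adjusted p = 0.99998), with 5 of the 7 lower. For Cdkn2a, Cdkn2b and Cdkn2c, 3 of the 7, all 4 kidneys standing apart were below the others, beside 14.2% of all genes. Cdkn1c, p57, stood at 141, 164, 101 and 73 CPM in CoCM 39, i.p. 38, i.v. 36 and i.v. 37 against 68.8 to 139, so that 2 of the 4 were above the others, and Rbl2 lay inside the range of the others in all 4.

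The starts of the genes were searched for the letters of 3 elements known from cell cycle promoters. These are the cell cycle homology region (CHR, TTTGAA), through which the MuvB complex acts with B-Myb and FoxM1 on late genes, the CCAAT box (CCAAT), bound by NF-Y, and an E2F site (TTTNGCGC). Both strands of the 250 bases before the annotated start were read in RefSeq promoters of the build GRCr8, which hold 33 of the 44 members. Ccnd1, Ccnd2, Cdk6, Ccne2, Ccna2, Mcm4, Cdc6, Rrm2, Aurkb, E2f1 and Foxm1 had no entry. The table gives 1 start per gene, and for 22 of the 33 the window reached into the gene as annotated. The CHR letters were in 10 of 33 members (30.3%), in 16.0% of all 27457 promoters and in 10.4% of the 10323 promoters of genes tested. CCAAT was in 22 of 33 (66.7%), in 34.3% of all and in 35.1% of those of genes tested. The E2F letters were in 7 of 33 (21.2%), in 1.11% of all and in 1.69% of those of genes tested. CHR and CCAAT together were in 9 of 33 members (27.3%), in 5.76% of all and in 3.91% of those of genes tested.

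The starts of 4 members, all outside the gene as annotated, are shown for the patterns above, each as the 150 bases before the start, 5′ to 3′ on the strand of the gene, with the letters of the 3 elements in capitals on either strand. Top2a and Mcm6 were low in the 4 kidneys that stood apart, Cdc20 overlapped, and Ccnb1 was high in 3 of them. Top2a (chr10:84473094-84473243, minus strand) carries CCAAT as ATTGG and CHR as TTCAAA. Cdc20 (chr5:137255800-137255949, minus strand) carries 2 CCAAT boxes around a CHR. Ccnb1 (chr2:33655226-33655375, minus strand) carries 2 CCAAT boxes and no TTTGAA in the 250 bases. Mcm6 (chr13:42404353-42404502, minus strand) carries 2 overlapping E2F sites, read on either strand, and 2 CCAAT boxes as ATTGG.
Top2a: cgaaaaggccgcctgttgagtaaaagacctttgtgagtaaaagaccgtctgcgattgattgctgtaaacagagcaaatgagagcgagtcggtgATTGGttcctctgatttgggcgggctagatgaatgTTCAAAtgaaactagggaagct
Cdc20: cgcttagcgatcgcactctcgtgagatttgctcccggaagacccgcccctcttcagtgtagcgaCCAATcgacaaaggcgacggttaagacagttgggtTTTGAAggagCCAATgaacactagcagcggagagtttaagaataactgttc
Ccnb1: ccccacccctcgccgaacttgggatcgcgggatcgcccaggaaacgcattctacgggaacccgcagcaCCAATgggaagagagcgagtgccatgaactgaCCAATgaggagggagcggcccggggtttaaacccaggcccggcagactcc
Mcm6: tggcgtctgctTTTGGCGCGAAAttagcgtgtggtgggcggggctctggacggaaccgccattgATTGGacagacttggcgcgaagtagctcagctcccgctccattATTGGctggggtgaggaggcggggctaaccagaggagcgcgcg

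Of the 33 members with a promoter entry, 18 had all 4 kidneys standing apart below the others. A CHR was found in 8 of these 18, beside 10 of all 33. A CCAAT box was in 13 of the 18, beside 22 of the 33, and an E2F site in 5 of the 18, beside 7 of the 33. Whether the elements go with the low levels was not tested. These matches are descriptions of letters and not of binding, and no match says only that the letters are not in the window.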

How the data were processed

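Total RNA of the left kidney of 24 rats, 6 per group, was sequenced on a BGISEQ-500. The deposited files hold, per animal, estimated counts and TPM of 17334 Entrez gene identifiers. The submitters' processing notes name Trim Galore 0.6.4, kallisto 0.4.6 (as written there) and the genome build rn6, and the study's methods name DESeq2 and a package of human gene models. The authors' estimated counts carry no normalization, and 86.4% to 87.3% of values per library were whole numbers. TPM values deposited by the authors summed to between 964191 and 976409 per library. Symbols were taken from a RefSeq gene table of GRCr8, which held 17179 of the identifiers, and no coordinates were taken from the count files.

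Here, estimated counts were rounded, genes with low counts removed with filterByExpr by group, libraries scaled by TMM, and all 24 animals fitted together with edgeR 4.0.16 (quasi-likelihood F test, limma 3.58.1, R 4.3.3), with p-values adjusted by Benjamini-Hochberg over 12778 genes. CPM carry the TMM scaling, SE were taken from the F statistic, and approximate 95% intervals used 20 residual degrees of freedom. The same steps were tested on simulated data for CoCM against Ctrl, where 91% of 200 genes changed 4-fold among 12733 genes were recovered. Alternatives were median-ratio size factors, DESeq2 1.42.0, limma voom with sample quality weights, limma on log2(TPM + 1), no filter, at least 10 counts in every library, only the groups compared, the 20 animals left without the 4 that stand apart, and each animal left out in turn. Relations used 100000 permutations. No animal number was shared between groups, so samples were not paired. The labels give 1 sample per animal. No pair of libraries of the same group agreed within sampling noise (smallest chi-square per degree of freedom 10.6), and pairs across groups were not compared. The libraries hold between 9304601 and 14125442 counts, and limits drawn from counts cover counting error only.

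The members and gene lists were chosen with earlier results of these data known. Values in each group were given for 16 members chosen by role, the 3 members with the smallest unadjusted p in each comparison and any that passed after adjustment. Rbl1 and the other members were named after their values were seen. Lists of other genes were given by counts, and marker lists by summed CPM. Of the genes with the smallest p-values in each list, only some were named.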

Additional observations from a re-analysis of the deposited data

Results flagged for a closer look

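In 22 genes whose levels were examined by group, 88 sets of 6 kidneys were searched for a kidney far from the others, and 5 were found, where chance gives about 4.4. Mki67 in Ctrl animal 1 stood at 32.4 CPM, with the other Ctrl kidneys between 15.6 and 21.8. Top2a in the same kidney stood at 19.9 CPM, with the others between 10.7 and 13.6. Cdk1 in i.p. animal 38 stood at 1.33 CPM, with the others between 6.13 and 8.26, and Ccna2 in that kidney at 1.7 CPM, with the others between 5.1 and 7.12. Ccnb1 in i.v. animal 37 stood at 36.6 CPM, with the others between 20.1 and 25.3. Animals 38 and 37 are among the 4 kidneys that stood apart over all genes, and Ctrl animal 1 is not.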

How the results depend on the processing

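Members that passed an adjusted p of 0.05 stayed at 0 in every comparison and alternative, except CoCM against Ctrl by DESeq2 and by limma voom with sample quality weights, with 1 member each (Cdc6). With quality weights, members with an unadjusted p under 0.05 numbered 5 in CoCM against Ctrl, 2 in i.p. against i.v. ABCB5+ and 8 over the 4 groups, and Kif11 in i.p. against i.v. turned from -0.28 to 0.012. In i.v. ABCB5+ against Ctrl they numbered 1 with at least 10 counts in every library, which tests fewer genes, and 0 without the 4 kidneys standing apart, which left 4 members over the 4 groups. Leaving out single animals gave 0 to 1 in i.p. and 0 to 3 in i.v. ABCB5+ against Ctrl, and 2 to 4 over the 4 groups. The i.v. count fell to 1 without Ctrl animal 1, 12 or 18 or i.v. animal 36, and to 0 without i.v. animal 37, without which the count over the 4 groups was 4; the i.p. count was 1 without Ctrl animal 1. The cause of these shifts was not tested. Shares of all genes are not given for these alternatives, so the counts are no result about the members as a set. Median differences of the members moved by less than 0.355, the SD between animals of the members' median log2 CPM. That SD is larger than the median difference of the 44 members in each comparison with all kidneys. A median could change side within it, as that of CoCM did, so this says little about stability. No paired analysis was possible because no animal number occurs in more than 1 group. Bub1b, Ttk and Cdkn2a were seen with a few counts or none in the kidneys standing apart, which limits their values there.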
